A study of Mus musculus with 7 samples.

Results

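Voltage-gated calcium, sodium and HCN channel genes, together with Nalcn, were followed in polyA RNA-seq counts of cortical neurons taken from mouse brain at E16.5, an embryonic stage. The groups were 3 wild type libraries and 4 KAT7 mutant libraries, all labelled C57BL/6 and male. The design text speaks of separate mice, so libraries were taken as animals. KAT7 is a histone acetyltransferase, and neither the Kat7 allele nor the cells it was mutated in was given in the sources used here. Members were the table rows whose gene symbol is that of a Cacna gene, Cacnb1 to Cacnb4, an Scn gene with a number and the letter a or b, an Hcn gene, or Nalcn. The rule matched 37 of 26286 genes, of which 36 had at least 1 read, and 33 of these are described here. Every count, sum and share below is over those 33. Scn7a was at 0 in every library.

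Voltage-gated calcium channels admit calcium when the membrane depolarises. Their pore is a single large alpha1 protein: the Cav1 (L-type), Cav2 (P/Q-, N- and R-type) and Cav3 (T-type) families differ in the voltage at which they open and in their place in the cell. Cav1 and Cav2 pores travel with a cytoplasmic beta subunit and an extracellular alpha2delta subunit, which raise their number at the surface. Voltage-gated sodium channels, with an alpha pore and small beta subunits, carry the rising phase of the action potential. HCN channels open on hyperpolarisation and are gated by cyclic nucleotides, and NALCN carries a sodium leak. In the cortex before birth many of these genes are already transcribed while the neurons are still immature in their firing.

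Libraries held 8272487 to 8813060 reads assigned to genes, of which the 33 members took 0.207% to 0.226%. Kat7 had 848 to 869 reads in the wild type libraries and 3 to 10 in the KAT7 mutant libraries, so each library matched its label. Defining cortical neuron markers were present: none of 11 was at 0, and their summed level was 7870 to 8550 CPM (counts per 1000000 reads) in wild type and 7920 to 8180 in KAT7 mutant. KAT7 mutant replicate 1 stood apart on the second principal component (23.1, against -9.8 to 1.6 in the other libraries). It was also the highest library for the 9 immediate early genes, which summed to 159 CPM there and to 47.5 to 92.9 in wild type. Of the 8 tested, 0 were called between genotypes. Egr1 was at 36.9 CPM there, against 7.88 to 10.04 in the other mutant libraries and 6.11 to 10.8 in wild type. Fos was at 26.2 against 6.24 to 10.04 and 5.43 to 12.5, and Npas4 at 37.9 against 13.6 to 16.35 and 5.20 to 18.8. Egr2 was at 0 CPM there, and Nr4a1 was at 27.3 against 25.9 in wild type replicate 1. The part of the immediate early genes in the channel gene values of this library was not tested. Without it, 10 members were called higher and 7 lower.

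Markers of several other cell types differed between genotypes as well. Over all tested genes, 13.1% were called higher in KAT7 mutant and 15.8% lower. The 11 interneuron markers summed to 316 to 490 CPM in wild type and 398 to 546 in KAT7 mutant, with 6 called higher and 1 lower. The 8 radial glia markers summed to 240 to 260 and 177 to 216 CPM, with 5 of 7 tested called lower and 0 higher. The 7 oligodendrocyte lineage markers summed to 29.6 to 35.4 and 35.6 to 54.2 CPM, with 4 called higher and 0 lower. The 7 microglia markers summed to 17.2 to 20.0 and 26.8 to 35.7 CPM, with 4 of 6 tested called higher and 0 lower. The 6 intermediate progenitor markers summed to 194 to 224 and 151 to 198 CPM, with 1 of 5 tested called higher and 2 lower, and the 8 endothelial and mural markers to 25.9 to 29.8 and 24.7 to 28.3 CPM, with 1 of 5 tested called lower and 0 higher. No gene of these lists was at 0 in all libraries. Their part in the channel gene differences was not tested. In bulk samples, fewer cells of a type and less RNA per cell cannot be told apart.

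The comparison of genotypes asks which channel transcripts differ where Kat7 mRNA is nearly lost. The HCN channel genes Hcn2 and Hcn3 and the sodium channel beta subunit gene Scn2b fell, with Scn2b at 0.334 of the wild type level, Hcn2 at 0.608 and Hcn3 at 0.682. The T-type calcium channel genes Cacna1g and Cacna1i rose 1.71-fold and 1.53-fold, and the sodium channel alpha genes Scn8a and Scn3a rose 1.39-fold and 1.38-fold. Of the 33 members, 26 passed the filter on low counts and were tested with edgeR's quasi-likelihood test, and a gene was called at a Benjamini-Hochberg adjusted p under 0.05 over all 13681 tested genes. The test called 10 members higher and 8 lower and did not call 8. Over all tested genes 13.1% were called higher and 15.8% lower, 28.9% in either direction. The median log2 fold change was -0.02 over the tested members (-0.0776 without KAT7 mutant replicate 1, 0.0079 without replicate 2, and 0.03 with no filter and 33 members) and 0.00 over all tested genes. Of the 18 called members, 4 changed by more than 1.5-fold and 14 by less. Called or not, 4 of the 26 tested members and 1681 of all 13681 tested genes changed by more than 1.5-fold.

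**Figure D1:**
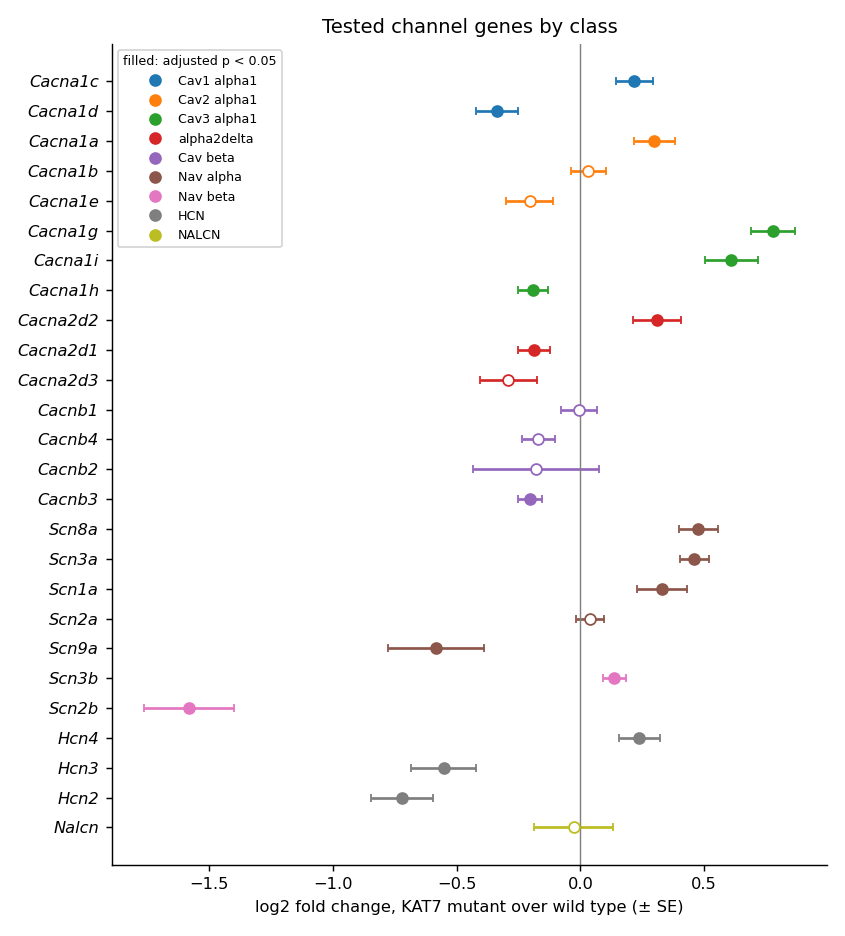
The log2 fold change of KAT7 mutant over wild type (x axis) is plotted with its standard error for each of the 26 tested channel genes, coloured by class, and filled symbols mark the 18 called genes. Scn2b lies lowest at -1.58, Hcn2 follows at -0.72, and Cacna1g lies highest at 0.78.

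**Figure D2:**
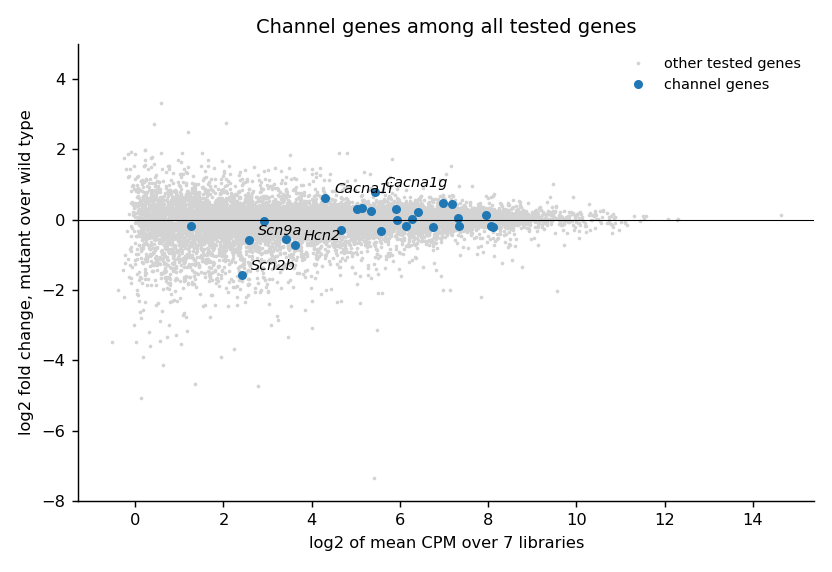
Each point is a tested gene, with the log2 of its mean CPM over the 7 libraries on the x axis and its log2 fold change on the y axis, and the 26 channel genes are drawn in blue. Most channel genes lie near 0, and the 5 named ones (Scn2b, Hcn2, Scn9a, Cacna1g and Cacna1i) are those with an absolute log2 fold change above 0.58.

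Of the 18 called members, 9 kept their call in all 17 alternatives tried: Hcn2, Hcn3, Scn2b, Cacna1d and Cacnb3 on the lower side, and Cacna1g, Cacna1i, Scn3a and Scn8a on the higher side. For each of the other 9, leaving out a single library could end the call. The number called higher was 5 without wild type replicate 2, and 6 without either mutant replicate 4 or wild type replicate 3. The number called lower was 5 without wild type replicate 1. Wild type and KAT7 mutant libraries did not overlap in 15 of the 26 tested members, compared with 35.3% of all tested genes. These were 14 called members and Cacna2d3, which was not called.

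Promoter sequence is shown for 2 members that fell and 2 that rose, to set their base composition side by side. RefSeq entries on build GRCm38.p6 were matched for 26 of the 33 members and 12 of the 18 called ones, with 36 start sites in all. Each run is the 250 bases before an annotated start, read 5′ to 3′ on the gene's strand, and capitals mark CG dinucleotides. Scn2b lies at chr9:45117626-45117875 on the plus strand, Hcn2 at chr10:79716384-79716633 (plus), Cacna1i at chr15:80286988-80287237 (plus), and the first of 2 Scn8a starts at chr15:100870395-100870644 (plus).
Scn2b: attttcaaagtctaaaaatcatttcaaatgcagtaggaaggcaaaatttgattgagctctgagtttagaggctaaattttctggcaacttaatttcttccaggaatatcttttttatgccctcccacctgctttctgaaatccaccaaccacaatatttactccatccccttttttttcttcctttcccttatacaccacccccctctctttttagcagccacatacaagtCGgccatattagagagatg
Hcn2: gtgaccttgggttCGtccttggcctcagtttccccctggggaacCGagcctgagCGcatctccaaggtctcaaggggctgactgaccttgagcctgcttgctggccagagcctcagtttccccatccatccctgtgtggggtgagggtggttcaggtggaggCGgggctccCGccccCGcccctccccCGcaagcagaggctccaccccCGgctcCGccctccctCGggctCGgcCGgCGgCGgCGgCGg
Cacna1i: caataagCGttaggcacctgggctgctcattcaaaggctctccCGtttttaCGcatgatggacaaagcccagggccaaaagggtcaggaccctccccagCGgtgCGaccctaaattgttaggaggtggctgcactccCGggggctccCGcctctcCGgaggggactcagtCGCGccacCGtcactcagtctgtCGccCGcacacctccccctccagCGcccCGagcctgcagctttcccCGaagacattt
Scn8a: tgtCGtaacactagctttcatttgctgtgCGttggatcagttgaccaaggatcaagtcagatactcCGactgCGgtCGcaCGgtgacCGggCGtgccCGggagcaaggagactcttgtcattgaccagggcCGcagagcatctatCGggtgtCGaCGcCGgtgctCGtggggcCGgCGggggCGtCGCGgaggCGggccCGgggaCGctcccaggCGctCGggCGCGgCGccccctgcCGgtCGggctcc
The Scn2b window held 1 CG dinucleotide and 38.4% G and C, whereas Hcn2 held 16 and 70.4%, Cacna1i 16 and 62.4%, and the Scn8a window shown 30 and 68.0%. The second Scn8a window held 9 and 53.2%. The median was 9 CG dinucleotides over the 36 windows of the members and 6 over all 32851 RefSeq windows. Windows of members called higher had a median of 16 (9 windows) and those of members called lower 10.5 (8 windows). Their median G and C went the other way, at 62.4% and 63.2%. Genes with several starts gave several windows, such as Cacna1c with 5, 48 and 2 CG dinucleotides. The letters GGGCGG, the GC box, were found on either strand in 14 of the 36 windows (38.9%) and in 32.7% of all windows. TATAAA stood in 2 (5.56%, against 12.4% of all), CAGCTG in 9 (25.0%, against 13.0%), and GGACAG, part of the RE1 element, in 2 (5.56%, against 18.7%). TGACGTCA and TTCAGCACC, the other RE1 part, were found in 0 of 36, against 1.55% and 0.301% of all windows. Each motif was counted on its own, so a window can hold several and matches can overlap.

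Among the HCN genes described, Hcn2 and Hcn3 fell and Hcn4 rose slightly. Hcn2, the subunit strongly responsive to cyclic AMP, was at 16.3, 14.5 and 16.52 CPM in wild type and at 10.4, 10.6, 7.80 and 9.54 CPM in KAT7 mutant. The groups did not overlap, and the fall was 0.72 ± 0.12 (SE) on the log2 scale (edgeR adjusted p = 0.00019). Hcn3 had 14.4, 12.2 and 12.7 CPM in wild type and 10.5, 9.04, 8.27 and 7.82 CPM in KAT7 mutant, again without overlap, and the log2 fold change was -0.55 ± 0.13 (SE; edgeR adjusted p = 0.00317). Exons of Hcn3 overlap those of Pklr on the opposite strand in GENCODE M21.

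Hcn4, the subunit of slow-opening channels known from the cardiac pacemaker, was the most abundant of these 3 in wild type. Its levels were 34.1, 35.9 and 40.5 CPM in wild type and 40.7, 45.7, 40.4 and 47.3 CPM in KAT7 mutant. Wild type replicate 3 lay just above KAT7 mutant replicate 3, so the groups overlapped. Hcn4 rose by 0.24 ± 0.08 (SE) on the log2 scale (edgeR adjusted p = 0.0333). The call was lost without wild type replicate 1 (0.18) or 2 (0.22), without KAT7 mutant replicate 2 (0.21) or 4 (0.20), and in DESeq2 (0.24), with an adjusted p of 0.0162 to 0.158 over the alternatives.

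**Figure D3:**
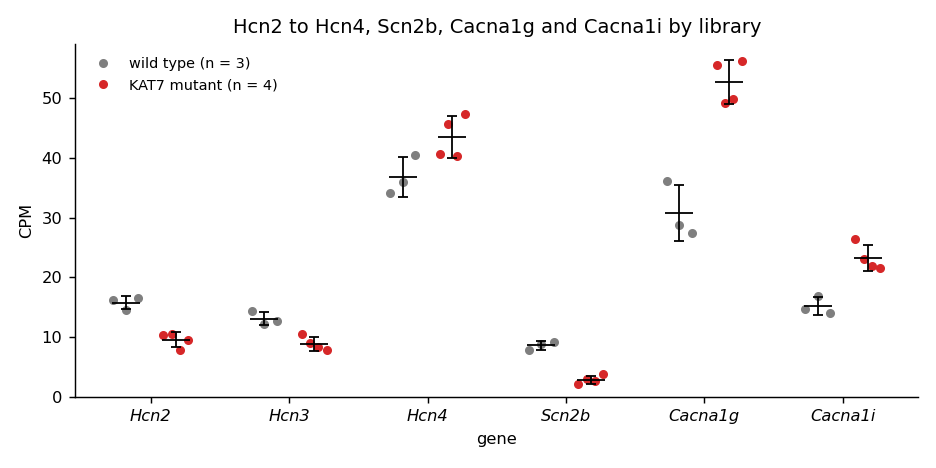
CPM of 6 named genes is plotted for each wild type (grey) and KAT7 mutant (red) library, with bars for the mean and SD. Hcn2, Hcn3 and Scn2b sit lower in every mutant library, Cacna1g and Cacna1i sit higher, and Hcn4 overlaps between genotypes.

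Levels can be set against each other between genes only per length, here as CPM per kilobase of deposited gene length. On that scale wild type Hcn4 was at 9.70 ± 0.870 (SD, n = 3), Hcn2 at 4.94 ± 0.338 and Hcn3 at 4.01 ± 0.345, and no library of one gene overlapped that of the next. Summed over Hcn2, Hcn3 and Hcn4, the level was 18.5, 17.8 and 19.7 CPM per kilobase in wild type and 17.2, 18.1, 15.6 and 17.8 in KAT7 mutant, with overlap (difference -7.86%, exact permutation p = 0.171). Hcn4 made up 48.6%, 53.3% and 54.1% of that sum in wild type and 62.3%, 66.4%, 68.1% and 69.8% in KAT7 mutant. The share of Hcn2 was 27.6%, 25.6% and 26.2% in wild type and 18.9%, 18.2%, 15.6% and 16.7% in KAT7 mutant. Both shares separated the genotypes, but an exact two-sided permutation test of 3 against 4 libraries cannot go below 0.0571. That value was reached by 19 of the 32 member shares compared and by 4 of the 9 class sums, with adjusted p of 0.0962 and 0.128, so none passed.

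**Figure D4:**
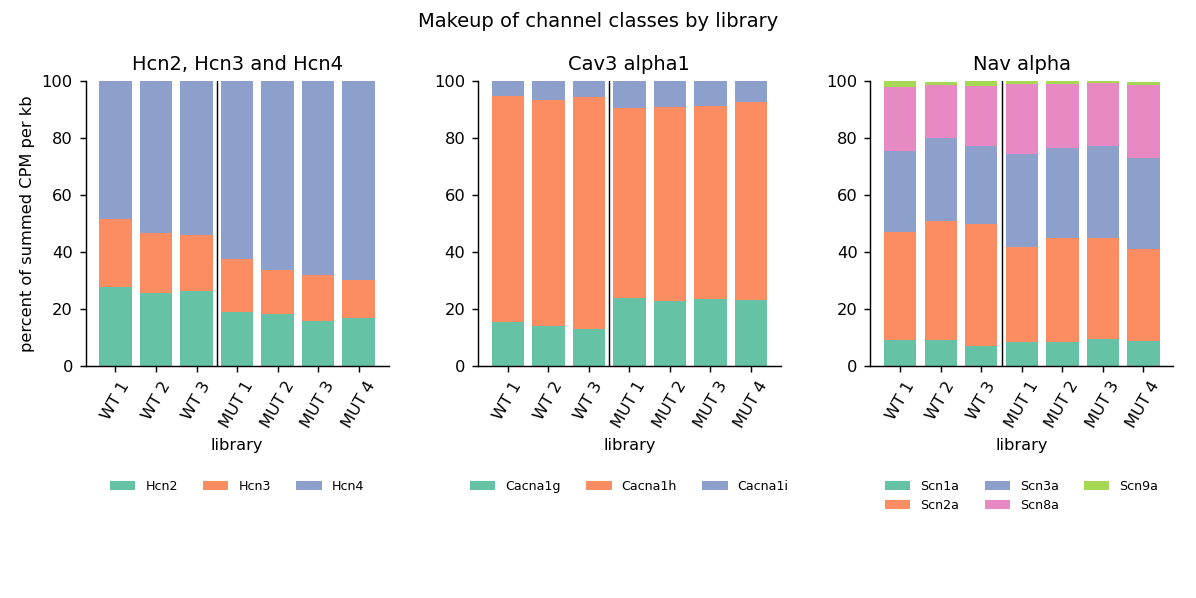
Stacked bars give each gene's percent of a summed level in each library, from CPM per kilobase, for Hcn2 to Hcn4, Cav3 alpha1 and Nav alpha genes, and genes with a wild type mean share of 0.5% or less are not drawn. Hcn4 takes 48.6% to 54.1% of its sum in wild type and 62.3% to 69.8% in KAT7 mutant, and Cacna1g takes 12.9% to 15.5% and 22.8% to 24.0% of the Cav3 sum.

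Among the T-type (Cav3) alpha1 genes, which encode pores that open near the resting potential, Cacna1g and Cacna1i rose and Cacna1h fell slightly. Cacna1g (Cav3.1) was at 36.1, 28.7 and 27.5 CPM in wild type and at 55.5, 49.2, 49.9 and 56.2 CPM in KAT7 mutant. All mutant libraries were above all wild type libraries, of which replicate 1 was the highest. The log2 fold change was 0.78 ± 0.09 (SE; edgeR adjusted p = 1.52e-06). Cacna1i (Cav3.3) was at 14.7, 16.9 and 14.0 CPM in wild type and at 26.4, 23.1, 21.9 and 21.6 CPM in KAT7 mutant, also without overlap, and rose by 0.61 ± 0.11 (SE; edgeR adjusted p = 0.000218).

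Cacna1h (Cav3.2) was by far the most abundant of the 3 in wild type, with 21.2 ± 1.28 CPM per kilobase (SD, n = 3) against 3.74 ± 0.566 for Cacna1g and 1.56 ± 0.155 for Cacna1i. It had 185, 164 and 174 CPM in wild type and 154, 147, 143 and 168 CPM in KAT7 mutant, where replicate 4 reached into the wild type range. It fell by 0.19 ± 0.06 (SE) on the log2 scale (edgeR adjusted p = 0.019). Without mutant replicate 2 (-0.18) or wild type replicate 1 (-0.15) or 3 (-0.19) it was not called, and its adjusted p ranged from 0.00459 to 0.101. Its exons overlap those of Tpsg1 on the opposite strand. The share of Cacna1h in the Cav3 sum was 80.0% ± 1.36 (SD, n = 3) in wild type and 67.9% ± 1.16 (SD, n = 4) in KAT7 mutant. The sum itself was 26.5 ± 1.68 and 27.4 ± 1.73 CPM per kilobase, with overlapping libraries (exact permutation p = 0.457).

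The 2 measured neuronal L-type (Cav1) genes were called in opposite directions. These channels couple depolarisation to calcium signals that reach the nucleus. Cacna1d (Cav1.3) was at 60.4, 50.9 and 51.2 CPM in wild type and at 38.6, 46.1, 39.8 and 47.2 CPM in KAT7 mutant, with no overlap, and fell by 0.34 ± 0.08 (SE) on the log2 scale (edgeR adjusted p = 0.00452). Its exons overlap those of Chdh on the opposite strand. Cacna1c (Cav1.2) was at 79.6, 75.8 and 76.6 CPM in wild type and at 88.0, 94.0, 76.2 and 101 CPM in KAT7 mutant, where replicate 3 lay within the wild type range. It rose by 0.22 ± 0.08 (SE; edgeR adjusted p = 0.0359), a call lost without any single wild type library (0.20 to 0.23) and without mutant replicate 2 (0.19) or 4 (0.16), with an adjusted p of 0.00219 to 0.133 over the alternatives. The share of Cacna1c in the Cav1 sum was 60.1% ± 1.62 (SD, n = 3) in wild type and 68.9% ± 1.49 (SD, n = 4) in KAT7 mutant. Cacna1f and Cacna1s, known from retina and skeletal muscle, had 25 and 4 reads over all libraries and were not tested.

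Of the Cav2 genes, whose channels trigger transmitter release, Cacna1a was called and Cacna1b and Cacna1e were not. Cacna1a, the P/Q-type pore, was at 60.1, 48.9 and 50.5 CPM in wild type and at 70.6, 67.1, 55.9 and 67.7 CPM in KAT7 mutant. KAT7 mutant replicate 3 lay below wild type replicate 1, so the groups overlapped. Cacna1a rose by 0.30 ± 0.08 (SE) on the log2 scale (edgeR adjusted p = 0.0105), and the call was lost without wild type replicate 2 (0.24) or 3 (0.26), with an adjusted p of 0.000582 to 0.0822 over the alternatives. Exons of Cacna1a overlap the antisense gene Gm16183.

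Cacna1b, the N-type pore and in wild type the most abundant Cav2 gene at 10.5 ± 0.647 CPM per kilobase (SD, n = 3), was at 80.4, 71.2 and 77.5 CPM in wild type and at 79.1, 79.1, 68.9 and 85.3 CPM in KAT7 mutant. The log2 fold change was 0.03 ± 0.07 (SE; edgeR adjusted p = 0.769). Cacna1e, the R-type pore, was at 9.17 ± 1.05 CPM per kilobase in wild type, which overlapped with Cacna1b, and its log2 fold change was -0.20 ± 0.09 (SE; edgeR adjusted p = 0.113). The Cav2 sum was 26.4 ± 2.31 and 26.9 ± 2.90 CPM per kilobase in wild type and KAT7 mutant.

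The auxiliary calcium channel subunits held the most abundant member of all, Cacnb3, at 95.7 ± 4.74 CPM per kilobase in wild type (SD, n = 3). Cacnb3 encodes a beta subunit that brings Cav1 and Cav2 pores to the surface. It was at 288, 292 and 315 CPM in wild type and at 272, 250, 254 and 261 CPM in KAT7 mutant, with no overlap, and fell by 0.20 ± 0.05 (SE) on the log2 scale (edgeR adjusted p = 0.00416). Cacnb1, Cacnb2 and Cacnb4 did not pass the test at log2 values of 0.00, -0.18 and -0.17, and Cacnb2 was low at 1.81 to 3.09 CPM in all libraries. The sum of the 4 beta genes was 130.4 ± 5.20 CPM per kilobase (SD, n = 3) in wild type and 117 ± 4.67 (SD, n = 4) in KAT7 mutant, a difference of -10.5% without overlap (exact permutation p = 0.0571, the smallest possible).

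Cacna2d1 and Cacna2d2 encode alpha2delta subunits, the binding proteins of gabapentin. Cacna2d1 fell, from 285, 292 and 280 CPM in wild type to 212, 258, 262 and 271 CPM in KAT7 mutant, where replicate 1 was the lowest. The groups did not overlap, and the log2 fold change was -0.19 ± 0.06 (SE; edgeR adjusted p = 0.0351). Its call was lost without any single wild type library (-0.20 to -0.17) and without mutant replicate 1 (-0.12), with an adjusted p of 0.00359 to 0.113 over the alternatives. Cacna2d2 was at 30.8, 25.2 and 30.8 CPM in wild type and at 37.7, 31.2, 40.4 and 33.9 CPM in KAT7 mutant, with replicate 2 just above the wild type range.

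Cacna2d2 rose by 0.31 ± 0.10 (SE) on the log2 scale (edgeR adjusted p = 0.0215). Its call was lost without mutant replicate 3 (0.24) or wild type replicate 2 (0.22), with an adjusted p of 0.0052 to 0.162 over the alternatives, and its exons overlap the antisense gene Gm17141. Cacna2d3 was at 27.7, 29.4 and 27.6 CPM in wild type and at 17.6, 25.3, 22.0 and 27.5 CPM in KAT7 mutant, and was not called (log2 fold change -0.29 ± 0.11 SE, edgeR adjusted p = 0.0627). Cacna2d4 had 6 reads in all.

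**Figure D5:**
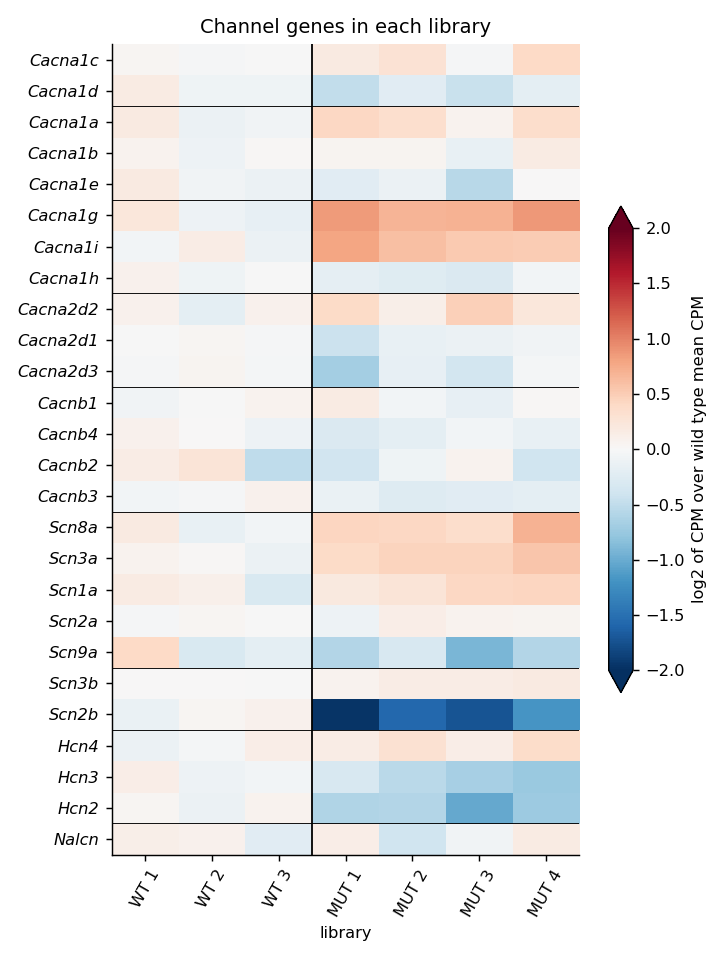
The colour of each cell is the log2 of a gene's CPM in a library (x axis: wild type, WT, and KAT7 mutant, MUT) over its wild type mean, for the 26 tested genes in class order. The Scn2b, Hcn2 and Hcn3 rows are blue in all 4 mutant libraries, the Cacna1g, Cacna1i, Scn8a and Scn3a rows are red in all 4, and Cacna2d1 and Cacna2d3 are lowest in KAT7 mutant replicate 1.

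Sodium channel alpha genes rose in 3 of 5 tested members (Scn1a, Scn3a and Scn8a), Scn9a fell, and Scn2a was not called. Scn3a, the pore typical of the embryonic brain, was at 126, 122 and 110 CPM in wild type and at 155, 162, 163 and 176 CPM in KAT7 mutant. Scn8a, the pore that gathers at the axon initial segment of mature neurons, was at 117, 92.9 and 99.7 CPM in wild type and at 139, 137, 131 and 167 CPM in KAT7 mutant. For both genes every mutant library was above every wild type library. The log2 fold changes were 0.46 ± 0.06 (SE; edgeR adjusted p = 5.58e-06) for Scn3a and 0.48 ± 0.08 (SE; edgeR adjusted p = 0.000139) for Scn8a.

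Scn1a, a pore prominent in inhibitory interneurons, was at 34.4, 33.0 and 24.8 CPM in wild type and at 35.1, 36.6, 41.0 and 41.6 CPM in KAT7 mutant. The groups were separated only narrowly, by 34.4 against 35.1 CPM, and wild type replicate 3 was the lowest library. Scn1a rose by 0.33 ± 0.10 (SE; edgeR adjusted p = 0.0178), with the call lost without mutant replicate 4 (0.29) or wild type replicate 3 (0.19) and an adjusted p of 0.00197 to 0.146 over the alternatives. The 11 interneuron markers summed to 316 to 490 CPM in wild type and 398 to 546 in KAT7 mutant, with overlapping libraries. Among these markers 6 were called higher, 1 (Sst, log2 fold change -0.49) was called lower and 4 were not called. Their part in the Scn1a difference was not tested.

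Scn2a, the main pore of early excitatory neurons, was the most abundant alpha gene in wild type at 17.9 ± 0.424 CPM per kilobase (SD, n = 3), followed without overlap by Scn3a at 12.5 ± 0.842, Scn8a at 9.06 ± 1.08 and Scn1a at 3.71 ± 0.628. Scn2a was at 153, 160 and 154 CPM in wild type and at 145, 170, 164 and 162 CPM in KAT7 mutant, with a log2 fold change of 0.04 ± 0.06 (SE; edgeR adjusted p = 0.639). Its share of the alpha sum was 38.1%, 41.9% and 42.6% in wild type and 33.4%, 36.5%, 35.7% and 32.4% in KAT7 mutant. The sum of the 8 alpha genes was 43.95 ± 2.24 CPM per kilobase (SD, n = 3) in wild type and 53.4 ± 3.09 (SD, n = 4) in KAT7 mutant, a difference of 21.6% without overlap (exact permutation p = 0.0571, the smallest possible).

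Scn9a, a pore best known from peripheral sensory neurons, was low at 9.74, 5.95 and 6.45 CPM in wild type and at 4.91, 5.91, 3.90 and 4.89 CPM in KAT7 mutant. Wild type replicate 1 was the highest, and replicate 2 lay only just above KAT7 mutant replicate 2. Scn9a fell by 0.58 ± 0.19 (SE; edgeR adjusted p = 0.0271), or by 0.34 without wild type replicate 1, where it was not called. The call was also lost without KAT7 mutant replicate 3 (-0.49) or 4 (-0.58) and in DESeq2 (-0.58), with an adjusted p of 0.00657 to 0.227 over the alternatives. Its exons overlap the antisense gene Gm13629. Scn4a, Scn10a and Scn11a, which are known from muscle and sensory neurons, had 2 to 18 reads over all libraries and were not tested.

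Several sodium channel genes lie side by side. On chromosome 2, Scn3a lies next to Scn2a with no protein-coding gene between them, at log2 fold changes of 0.46 and 0.04. Scn1a lies next to Scn9a, at 0.33 and -0.58, and Scn9a next to Scn7a, which had no reads. Scn2a and Scn1a are separated by 3 protein-coding genes. The alpha genes are similar in coding sequence, and how reads that match more than 1 of them were counted is not given in the sources used here.

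Of the sodium channel beta genes, Scn2b fell and Scn3b rose slightly. Scn2b encodes a beta subunit that is joined to the alpha pore by a disulfide bond and is linked to its surface delivery in maturing neurons. It was at 7.84, 8.81 and 9.16 CPM in wild type and at 2.22, 2.90, 2.60 and 3.79 CPM in KAT7 mutant. No mutant library came near the wild type range. The log2 fold change was -1.58 ± 0.18 (SE; edgeR adjusted p = 1.45e-06), a 2.99-fold lower level, at 66 to 81 reads in each wild type library and 19 to 31 in each mutant library.

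Scn3b, a non-covalently bound beta subunit that is abundant in the embryonic brain, was the second most abundant member at 50.5 ± 0.323 CPM per kilobase in wild type (SD, n = 3). It was at 233, 234 and 231 CPM in wild type and at 244, 257, 259 and 264 CPM in KAT7 mutant, a narrow separation without overlap. It rose by 0.14 ± 0.05 (SE; edgeR adjusted p = 0.0332), the smallest change among the called members. Leaving out any library except KAT7 mutant replicate 1 ended the call, at log2 fold changes of 0.12 to 0.14, as did testing with no count filter (0.13), and the adjusted p ranged from 0.017 to 0.102. Scn4b had 3 reads in all.

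Nalcn was at 8.31, 8.12 and 6.56 CPM in wild type and at 8.41, 5.80, 7.32 and 8.56 CPM in KAT7 mutant, with a log2 fold change of -0.03 ± 0.16 (SE; edgeR adjusted p = 0.92). The groups overlapped.

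Proteins that bind, anchor or regulate these channels were followed as a list of 30 gene names, of which 27 matched the table and 23 were tested. The edgeR test called 7 higher and 7 lower (4 higher without wild type replicate 3), beside 13.1% higher and 15.8% lower over all tested genes, and the list median log2 fold change was 0.04. The largest falls were in Fgf14, Fgf11 and Cachd1. Fgf14, an intracellular FGF that binds sodium channel alpha subunits at the axon initial segment, was at 22.9, 29.1 and 24.3 CPM in wild type and at 12.5, 11.9, 14.6 and 10.8 CPM in KAT7 mutant, a log2 fold change of -1.03 ± 0.12 (SE; edgeR adjusted p = 1.31e-06). Fgf11, of the same family, stood at 3.32 to 5.32 and 1.62 to 3.62 CPM, with overlap, and fell by 0.77 ± 0.25 (SE; edgeR adjusted p = 0.0287). Its call was lost without mutant replicate 2 (-0.60) or 3 (-0.67), wild type replicate 1 (-0.75) or 3 (-0.60), and in DESeq2 (-0.76), with an adjusted p of 0.00589 to 0.15 over the alternatives. Cachd1, an alpha2delta-like protein, fell by 0.60 ± 0.06 (SE), from 79.9 to 84.5 CPM in wild type to 49.7 to 56.2 CPM in KAT7 mutant.

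The largest rises of the list were in Cabp1, Rimbp2 and Ank2, and the groups did not overlap for any of these. Cabp1, a calcium-binding protein that modulates Cav channels, was at 37.4 to 43.8 CPM in wild type and 61.3 to 67.4 CPM in KAT7 mutant, a log2 fold change of 0.68 ± 0.07 (SE; edgeR adjusted p = 3.84e-07). Rimbp2, a presynaptic protein that ties Cav channels to release sites, rose by 0.56 ± 0.12 (SE), from 15.4 to 19.2 CPM in wild type to 20.7 to 29.2 CPM. Ank2, an ankyrin that anchors channels to the membrane skeleton, rose by 0.48 ± 0.08 (SE), from 43.4 to 55.6 CPM to 63.0 to 78.0 CPM.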

How the data were processed

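The authors deposited whole-number read counts per Entrez gene for the 7 libraries, with a gene length per row. The counts came from featureCounts on mouse mm9, per the submitters' processing notes. Neither the aligner nor the annotation nor a strand setting was given in the sources used here. Whether reads from genes that overlap on opposite strands were told apart is therefore not known. Symbols came from an NCBI table of GRCm38.p6 (92% of identifiers matched), used for names and gene neighbours. The members and lists were chosen with earlier results of these data known. A few genes that match the rule are not reported here.

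Genes were filtered with filterByExpr (minimum count 10), scaled by TMM (factors 0.9894 to 1.01) and compared with the two-sided quasi-likelihood test of edgeR 4.0.16 in R 4.3.3, with genotype as the only term. The SE was taken as the log2 fold change divided by the root of the F statistic. CPM use TMM-adjusted library sizes, and the deposited gene length gave CPM per kilobase. Replicates varied beyond counting noise (chi-square per gene 2.05 to 3.67). The fit was tested on simulated data. Alternatives were other scaling factors and filters, DESeq2 1.42.0, limma-voom 3.58.1, a robust fit, the replicate number as a block, each library left out, and an adjusted p under 0.01. All called members, the most abundant member of each class and the 3 largest called rises and falls of the partner list were named. Members outside this rule were chosen after their values were seen.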

Additional observations from a re-analysis of the deposited data

How the results depend on the processing

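Of 17 alternatives to the edgeR result, the count of channel genes called higher (10) was 6 with the replicate number as a block, 4 at an adjusted p under 0.01, and 5 to 10 with 1 library left out. Channel genes called lower (8) numbered 5 at an adjusted p under 0.01, 5 to 9 with 1 library left out, 10 with the block and 11 with no count filter. Partner genes called higher (7) numbered 4 to 9 with 1 library left out. The libraries share only a number: same-numbered libraries correlated at -0.029 to 0.018 in their deviations from genotype means, and not every library correlated best with its own number. The block ended the calls of Cacna1c (adjusted p = 0.133), Hcn4 (0.115), Scn3b (0.102) and Scn1a (0.0774) in edgeR. The log2 fold change of Cacna1b turned to -0.0134 with the replicate block and ranged from -0.0194 to 0.0845 with 1 library left out, and that of Nalcn from -0.1286 to 0.0779. The summed levels that changed sign with 1 library left out were those of Cav1 (-2.81% to 5.79%), Cav2 (-1.16% to 7.5%) and Nalcn (-8.46% to 5.64%), and the other class sums kept their direction. The median log2 fold change of the members (-0.0162) was 0.0285 with no count filter and -0.0776 to 0.0079 with 1 library left out. The cause of these changes was not tested. Members with 25 reads or fewer in all (7 of 33) were too shallow to be tested.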
